A study of Arabidopsis thaliana with 6 samples.

Results

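The genes described here encode subunits of the proteasome in Arabidopsis thaliana, a small crucifer used as a model plant, and were measured in seedlings exposed to recorded traffic noise or to control white noise. They were chosen by gene symbol: PA or PB with a letter of A to G and a copy number for the core particle, and RPT or RPN with a number for the regulatory particle. PAA1 and PAA2 were left out because copper-transporting ATPases carry the same symbols. The symbols matched 38 rows of the count tables, and 34 of the 32921 named rows were kept as members. These were 18 core genes, 8 alpha and 10 beta, and 16 regulatory particle genes, 8 ATPases and 8 non-ATPases. PAB1 was set aside because it named 2 rows, and PAB2 and RPT2 because the annotation describes a poly(A) binding protein and a phototropism protein under those symbols. PBE2 and RPN11 had no row of their own symbol and are not described.

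The study held 6 libraries from whole wild-type seedlings. In 3 of them the plants had received traffic noise at 75 dB on average for 48 h, and in the other 3 white noise at 10 dB on average for 48 h in the same sound-proof set-up. All plates were wrapped in foil, so the seedlings of both groups were kept from light. Sound type and sound level differed together and cannot be told apart. Nothing in the labels says that the libraries came from separate plates or days, so every p-value measures only the spread between these libraries, which may be technical.

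The proteasome is the large protease that destroys proteins tagged with ubiquitin in the cytosol and nucleus. Its core particle is a barrel: outer rings of alpha subunits form a gate, and inner rings of beta subunits hold the proteolytic sites on PBA, PBB and PBE. The regulatory particle caps the barrel; its RPT ATPases unfold substrates and its RPN subunits bind and trim ubiquitin chains. In Arabidopsis most subunits are encoded by a pair of near-identical genes, and genes of both particles are known to be induced together through a promoter element with the core TGGGC, bound by the transcription factors NAC053 and NAC078. In seedlings the proteasome is known for removing regulators of light and hormone responses.

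The promoters are shown because that element is the known shared feature of these genes. TGGGC on either strand was searched for in the 250 bases before the annotated gene start of 32 members, all but PBC2 and RPN12b, in the TAIR10.1 assembly with its RefSeq annotation. It was present in 18 of the 32, or 56.2%, against 24.0% of 22510 promoters of protein-coding genes. The core had it in 11 of 17 promoters and the regulatory particle in 7 of 15. At least 2 matches were present in 46.9% of the members' promoters and in 13.8% of all promoters. The longer strings TGGGCC and TGGGCT, which both contain TGGGC, were present in 43.8% and 40.6% of the members' promoters, against 14.9% and 13.0% of all. AAACCCT, a string common before genes of the translation machinery, was present in 6.25% of the members' promoters and 6.18% of all. A match is a description of letters and not a binding site.

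The 4 promoters printed here belong to 3 members with low fitted fold changes and to the ATPase with the highest. PBB2, a trypsin-like beta subunit, lies on the minus strand and its window is chr5:16250926-16251175. RPN1A, the scaffold of the regulatory particle's base, lies on the plus strand, with the window chr2:8858712-8858961. PBE1, the chymotrypsin-like beta subunit, lies on the plus strand, with the window chr1:4451940-4452189. RPT4A, an ATPase, lies on the minus strand, with the window chr5:17251201-17251450. Each is written 5′ to 3′ in the gene's direction with the gene start just after the last base, and capitals mark TGGGC or its reverse complement GCCCA.
PBB2: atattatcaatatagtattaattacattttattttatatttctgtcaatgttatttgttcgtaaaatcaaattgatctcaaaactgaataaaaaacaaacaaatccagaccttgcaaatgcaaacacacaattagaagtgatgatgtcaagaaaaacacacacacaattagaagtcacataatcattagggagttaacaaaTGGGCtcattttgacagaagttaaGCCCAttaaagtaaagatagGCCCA
RPN1A: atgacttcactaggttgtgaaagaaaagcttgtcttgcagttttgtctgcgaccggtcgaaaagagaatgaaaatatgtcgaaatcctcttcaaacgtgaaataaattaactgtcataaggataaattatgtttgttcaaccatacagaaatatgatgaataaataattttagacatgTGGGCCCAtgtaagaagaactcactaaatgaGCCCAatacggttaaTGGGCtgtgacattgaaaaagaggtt
PBE1: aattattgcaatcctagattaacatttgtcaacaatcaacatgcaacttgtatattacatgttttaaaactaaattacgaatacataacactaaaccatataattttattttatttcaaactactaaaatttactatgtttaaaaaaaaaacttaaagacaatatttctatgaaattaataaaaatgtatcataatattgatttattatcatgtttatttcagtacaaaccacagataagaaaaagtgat
RPT4A: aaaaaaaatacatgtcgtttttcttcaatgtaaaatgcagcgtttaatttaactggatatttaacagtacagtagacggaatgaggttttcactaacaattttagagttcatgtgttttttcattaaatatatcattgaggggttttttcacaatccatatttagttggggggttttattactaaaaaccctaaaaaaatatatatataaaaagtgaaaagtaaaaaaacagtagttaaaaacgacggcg
The PBB2 window held 3 matches and the RPN1A window 4, of which a pair overlap in the string TGGGCCCA. The PBE1 and RPT4A windows held none.

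RNA was read from the 3′ ends of transcripts, so a count reflects transcript ends and is not expected to scale with transcript length. Levels of different genes are set side by side on that ground. Such a comparison is less certain for similar copies and overlapping loci, as strand use and the treatment of reads with several matches are not stated. Levels are given as CPM, counts scaled to library size with TMM factors. Named rows summed to 17540009 to 20780363 counts in a library. Control replicate 3 had counts on 16128 rows, against 20026 to 20287 rows in the other 5 libraries, and control replicate 1 had 16.1% of its counts on plastid and mitochondrial loci, against 10.1% to 11.7%. The part of either library in the results was not tested. Values without it are given beside some results, and a result without such a value may also move. Of 7 shoot markers 6 had counts in every library, and of 7 root markers 2 did, SHR and SCR, while the root hair marker COBL9 was at 0 in all 6. Summed, scaled to library totals alone, shoot markers took 3584 to 3970 CPM under traffic noise and 2652 to 5936 CPM in controls, and root markers 58.6 to 64.2 CPM under traffic noise and 46.6 to 64.3 CPM in controls. The sum of the 2 markers of reserve use, ICL and MLS, did not overlap between the groups, at 1043 to 2804 CPM under traffic noise and 3241 to 6531 CPM in controls. ICL alone nearly met, with 19124 to 53398 unscaled counts under traffic noise and 55874 to 104457 in controls. The shoot marker CAB1 did not overlap either, with 22666 to 26696 unscaled counts under traffic noise and 7450 to 16166 in controls. Of tested loci with at least 10 CPM on average, 10.7% were lower and 9.81% higher without overlap. Every other shoot marker overlapped between the groups in counts. The highest counts of CAB2, CAB3, RBCS1A and ATML1 were in control replicate 3, that of CLV3 in control replicate 1 and that of STM in traffic replicate 3. Seed storage markers stayed under 5 CPM, and CRC was at 0 in all libraries. What part these differences have in the proteasome values was not tested.

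Taken as summed levels, both particles were lower under traffic noise, the core by more. The 18 core genes summed to 1011, 1042 and 904.9 CPM in the traffic noise libraries, against 1357, 1154 and 1434 CPM in the control white noise libraries. That is 986 ± 71.8 CPM under traffic noise and 1315 ± 144.7 CPM in controls (SD, n = 3 each), a ratio of 0.750. The groups did not overlap, and the nearest libraries were traffic replicate 2 and control replicate 2. In such whole-seedling RNA, fewer cells with proteasome transcripts and less transcript per cell cannot be told apart.

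The 16 regulatory particle genes summed to 533.3, 502 and 494.2 CPM under traffic noise, against 583.8, 568.8 and 605.8 CPM in controls. The means were 509.8 ± 20.7 CPM under traffic noise and 586.1 ± 18.6 CPM in controls (SD, n = 3 each), a ratio of 0.870, again without overlap. Core over regulatory particle was 1.90, 2.08 and 1.83 under traffic noise, against 2.33, 2.03 and 2.37 in controls. This ratio overlapped between the groups, because traffic replicate 2 lay above control replicate 2. All 34 members together took 0.157%, 0.152% and 0.145% of the counts under traffic noise, against 0.190%, 0.171% and 0.202% in controls. The widest 95% Wilson interval around these shares, that of control replicate 3, ran from 0.200% to 0.204%, and covers counting error only.

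The core sum stayed lower under traffic noise with either of these 2 controls left out. On the log2 scale the ratio of the core sums was -0.42 with all libraries, -0.39 without control replicate 1 and -0.35 without control replicate 3. For the regulatory particle it was -0.20 with all libraries, -0.20 without control replicate 1 and -0.18 without control replicate 3. With plastid and mitochondrial loci left out of the totals the core value was -0.42.

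**Figure D1:**
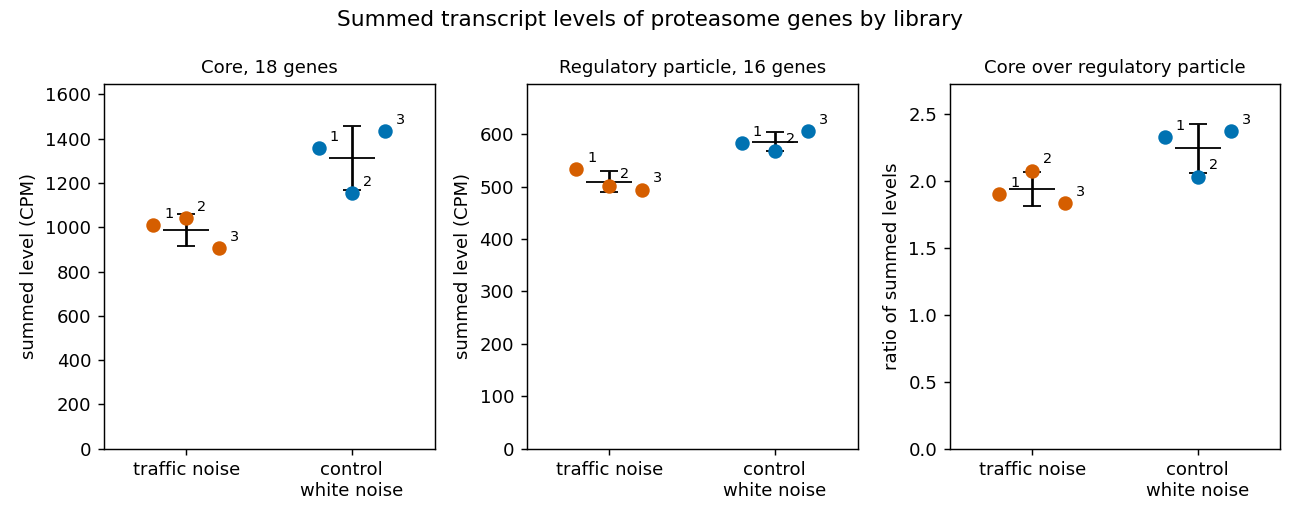
Summed TMM-scaled CPM of the 18 core genes (left) and 16 regulatory particle genes (middle), and their ratio (right), for each library, numbered by replicate; the horizontal line and bars are mean ± SD. The core sums lie between 904.9 and 1042 CPM under traffic noise and between 1154 and 1434 CPM in controls, the regulatory particle sums are separated by less, and the ratios overlap.

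No single member passed the test. Of the 34 members 0 were called by edgeR's quasi-likelihood test, with p-values adjusted by Benjamini-Hochberg across 19112 loci, and the smallest adjusted p was 0.544, for PAG1. The background was as bare: 0 loci were called higher (0%) and 2 lower (0.0105%). At an unadjusted p under 0.05, 9 members were lower and 0 higher, against 3.98% of all loci lower and 3.48% higher. Of the loci with at least 10 CPM on average, 7.01% were lower at that level. DESeq2 called 0 of the 22 members it gave an adjusted p, and limma-voom called 0 of 34; at an unadjusted p under 0.05 they had 9 and 8 members, all lower. DESeq2 called 1.92% of the loci it adjusted as higher and 2.98% as lower, and at the unadjusted level 3.85% and 4.15%. For limma-voom the called shares were 0.0209% higher and 0.0419% lower, and the unadjusted ones 5.75% and 3.86%.

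The 9 members were 7 core genes (PAC1, PAE2, PAG1, PBA1, PBB1, PBB2 and PBE1) and 2 regulatory particle genes (RPN1A and RPN13). The core count depended on single libraries: it was 4, 3 and 1 without traffic replicate 1, 2 and 3, and 1, 8 and 3 without control replicate 1, 2 and 3. The share of all loci lower at that level moved too. It was 3.04%, 2.06% and 2.57% without traffic replicate 1, 2 and 3, and 2.96%, 5.51% and 3.95% without control replicate 1, 2 and 3. The regulatory particle count was 1 without any one library. Libraries of the groups did not overlap for 10 members, 7 core and 3 regulatory particle, all lower under traffic noise, against 7.39% of all loci lower and 8.99% higher. At 10 CPM or more these shares were 10.7% and 9.81%.

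By direction alone, 16 of 18 core genes and 9 of 16 regulatory particle genes had a negative fitted log2 fold change. Of all tested loci 47.5% were negative, and of those with at least 10 CPM 50.1%. The median log2 fold change was -0.41 for the core and -0.15 for the regulatory particle, against 0.05 for all tested loci. Without traffic replicate 2 the regulatory particle median was 0.04, and without control replicate 2 it was -0.08. Members share their libraries, so they are not independent counts of the condition.

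**Figure D2:**
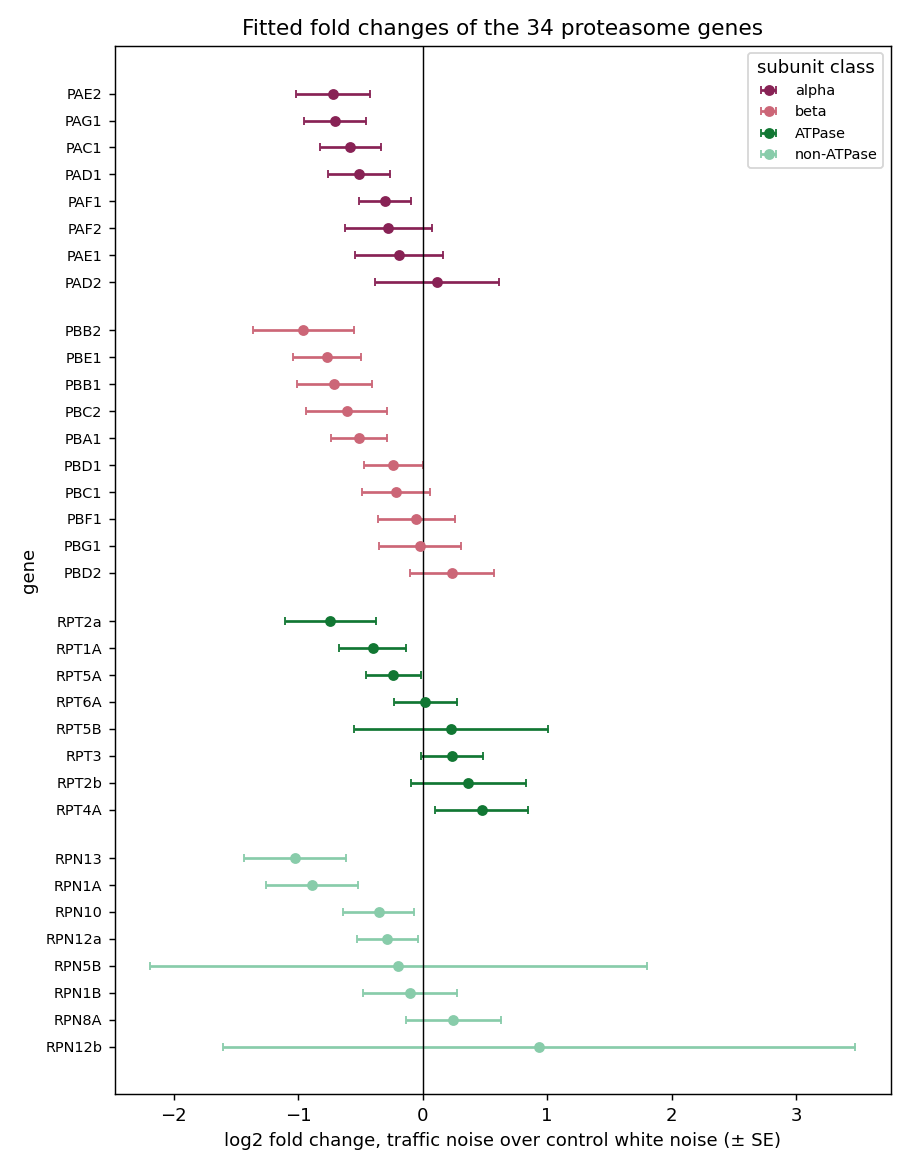
Fitted log2 fold change, traffic noise over control white noise, with its standard error (edgeR, 3 libraries a group) for each of the 34 genes, ordered within subunit class. Alpha and beta genes lie mostly left of 0, with 16 of 18 negative, whereas the ATPases lie on both sides, and RPN12b and RPN5B, the least counted members, have the widest bars.

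Among the alpha genes, which form the gated outer rings, 7 of 8 had a negative fold change and the median was -0.41. PAG1 had 63.8, 63.3 and 58.6 CPM under traffic noise, against 103.7, 74.9 and 124.0 CPM in controls. The traffic noise libraries lay close together and below every control, with a log2 fold change of -0.70 ± 0.25 (SE). PAC1 had 55.03, 78.2 and 78.3 CPM under traffic noise, against 101.1, 93.8 and 121.8 CPM in controls, a log2 fold change of -0.58 ± 0.24. PAE2, the more abundant copy of its pair, had 34.7, 30.2 and 22.7 CPM under traffic noise and 61.5, 40.5 and 42.3 CPM in controls, with a log2 fold change of -0.72 ± 0.30. Neither gene overlapped between the groups, and in edgeR's quasi-likelihood test the adjusted p-values were 0.634 for PAC1 and 0.633 for PAE2.

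PAF1 was the most abundant alpha gene. It had 137.1, 143.6 and 123.6 CPM under traffic noise, against 187.9, 148.7 and 163.3 CPM in controls, so the groups were separate but near each other, with a log2 fold change of -0.31 ± 0.21. PAD1, at 59.7 ± 4.71 CPM under traffic noise and 85.4 ± 18.7 CPM in controls (SD, n = 3 each), overlapped only at control replicate 2. PAD2 was the one alpha gene with a positive value, 0.11 ± 0.50. It had 27.5, 17.3 and 19.1 CPM under traffic noise, against 30.9, 21.2 and 6.98 CPM in controls, and the groups overlapped. The sign depended on single libraries: without control replicate 3 the log2 fold change was -0.29, and without traffic replicate 1 it was -0.11. Without control replicate 1 it was 0.60. PAE1 and PAF2 had log2 fold changes of -0.19 and -0.28 with overlapping groups. A locus on the opposite strand overlaps PAF2 in the annotation and carries more counts than it does, and whether counting used strand is not stated.

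The 4 beta genes measured that carry proteolytic sites had log2 fold changes of -0.96 to -0.51. PBA1, the caspase-like subunit, had 68.8, 92.7 and 69.6 CPM under traffic noise, against 112.3, 106.9 and 110.4 CPM in controls. Its controls agreed closely and every traffic noise library lay below them, with a log2 fold change of -0.51 ± 0.23. PBE1, the chymotrypsin-like subunit, had 70.6, 75.4 and 50.7 CPM under traffic noise, against 126.6, 78.5 and 130.4 CPM in controls, a log2 fold change of -0.77 ± 0.28. The groups were separate, although control replicate 2 lay just above the highest traffic noise library. Adjusted p-values in edgeR's quasi-likelihood test were 0.665 for PBA1 and 0.545 for PBE1.

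The trypsin-like subunit is encoded by PBB1 and PBB2. PBB1 had 40.1, 24.5 and 34.4 CPM under traffic noise, against 50.7, 42.4 and 68.8 CPM in controls, without overlap and with a log2 fold change of -0.71 ± 0.30. PBB2 had 17.7, 21.4 and 12.5 CPM under traffic noise, against 31.9, 18.7 and 49.7 CPM in controls. Its fold change was the lowest in the core, -0.96 ± 0.41, but control replicate 2 lay within the traffic noise range; without control replicate 3 the log2 value was -0.56. Both had an adjusted p of 0.642 in edgeR's quasi-likelihood test. In the annotation a same-strand locus with 211 counts in all overlaps PBB1, and an opposite-strand locus with 750 counts overlaps PBB2.

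The other beta genes have no proteolytic site. Of them, PBC2 had 37.9, 56.1 and 51.5 CPM under traffic noise, against 61.3, 50.4 and 110.6 CPM in controls, a log2 fold change of -0.61 ± 0.33 that was -0.20 without control replicate 3. PBC1 had 41.2, 33.4 and 39.4 CPM under traffic noise, against 43.5, 53.4 and 35.4 CPM in controls. PBD1, the most abundant of all members, had 168.7, 136.9 and 130.4 CPM under traffic noise, against 159.6, 137.8 and 216.2 CPM in controls. All 3 genes overlapped between the groups, with log2 fold changes of -0.21 for PBC1 and -0.24 for PBD1. Without control replicate 3 PBD1 was at -0.03. PBC1 was at -0.05 without control replicate 2 and at -0.35 without control replicate 3. An opposite-strand locus with many counts overlaps PBD1. PBD2, the second copy, had 37.0, 44.7 and 24.8 CPM under traffic noise and 29.0, 39.0 and 22.3 CPM in controls, a positive value of 0.24 ± 0.34 that was 0.06 without control replicate 3 and 0.05 without traffic replicate 2. PBF1 and PBG1, each encoded once, stood near 0 at -0.05 ± 0.31 and -0.02 ± 0.33. A counted locus on the opposite strand overlaps each of PBD2, PBF1 and PBG1.

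**Figure D3:**
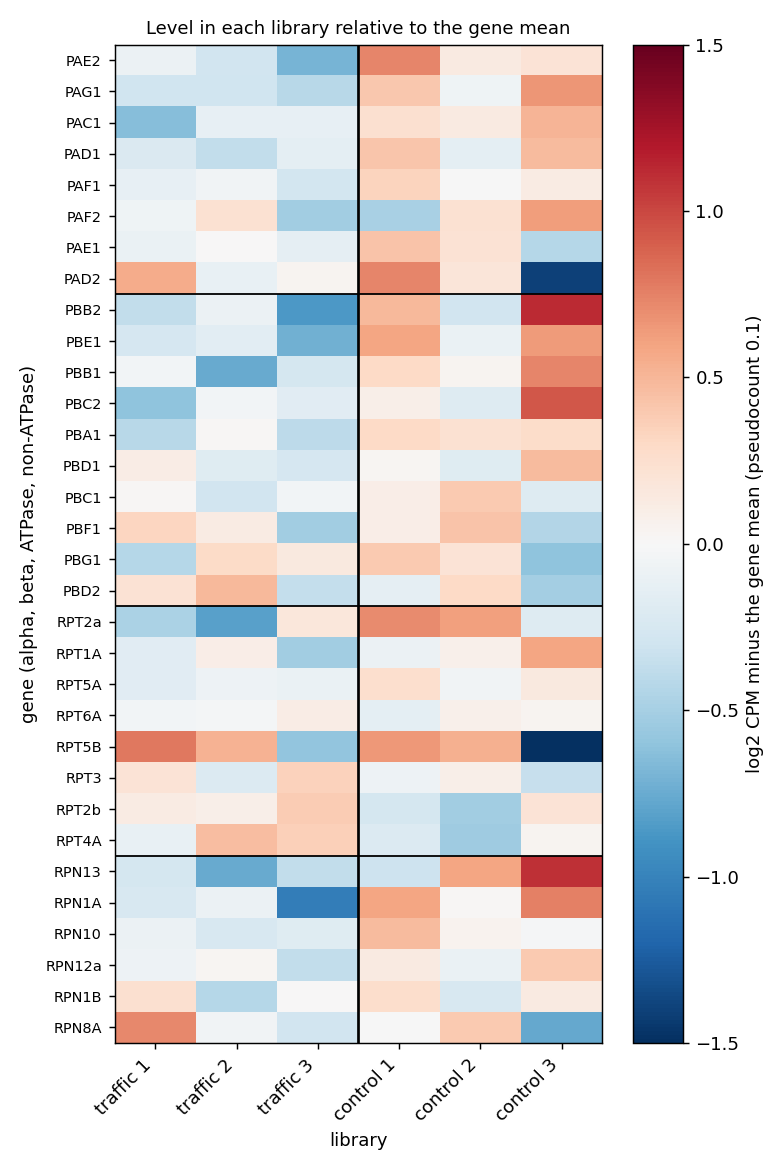
Level of each member in each library as log2 CPM (pseudocount 0.1) minus the gene's mean over the 6 libraries, for members of at least 5 CPM on average; rows are grouped as alpha, beta, ATPase and non-ATPase. Control replicates 1 and 3 hold the highest core level for 6 and 9 of the 18 core genes, and traffic replicate 3 the lowest for 8.

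Which library was extreme differed within the core. The highest level of a core gene was in control replicate 3 for 9 genes, control replicate 1 for 6, control replicate 2 for 2 and traffic replicate 2 for 1. Control replicate 3 also held the lowest level for 4 core genes, PAD2 among them. In the regulatory particle the highest level was in a control for 9 of 16 genes and in a traffic noise library for 7.

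The ATPases of the regulatory particle, the ring that unfolds substrates and opens the gate, were mixed in direction. Of 8, 3 had a negative and 5 a positive fold change, with a median of 0.12. The sign of that median rested on single libraries: it was -0.065 without control replicate 3 and -0.0034 without traffic replicate 1, with 4 negative and 4 positive genes each time. Their summed level was nonetheless lower, 330.2 ± 9.01 CPM under traffic noise and 360.6 ± 4.74 CPM in controls (SD, n = 3 each), a ratio of 0.916 without overlap. Median and sum thus differ in sign; RPT5A and RPT1A, both with negative values, were the most abundant ATPases.

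RPT2a, known for its role in maintaining the root meristem, had 21.9, 17.4 and 34.5 CPM under traffic noise, against 50.0, 46.8 and 26.8 CPM in controls, a log2 fold change of -0.74 ± 0.36. Traffic replicate 3 lay above control replicate 3, and the groups overlapped. RPT1A had 69.5, 84.3 and 54.5 CPM under traffic noise, against 74.0, 82.8 and 118.5 CPM in controls, and the groups overlapped; an opposite-strand locus also overlaps it in the annotation. RPT5A, the most abundant ATPase, had 73.5, 78.3 and 76.8 CPM under traffic noise, against 98.4, 79.3 and 91.5 CPM in controls, which did not overlap. Their log2 fold changes were -0.40 ± 0.27 for RPT1A, or -0.17 without control replicate 3, and -0.24 ± 0.22 for RPT5A.

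On the positive side, RPT4A had 15.4, 22.9 and 21.2 CPM under traffic noise, against 14.4, 11.4 and 17.1 CPM in controls. Traffic replicate 1 lay within the controls, and the log2 fold change was 0.47 ± 0.37. RPT3 averaged 82.2 ± 15.3 CPM under traffic noise and 69.9 ± 10.4 CPM in controls (SD, n = 3 each). The second copies were low: RPT2b averaged 11.2 ± 1.29 CPM under traffic noise and 8.68 ± 2.32 CPM in controls, and RPT5B 7.34 ± 3.20 CPM under traffic noise and 6.26 ± 4.19 CPM in controls (SD, n = 3 each). A locus on the same strand overlaps RPT3 in the annotation, and a counted locus on the opposite strand overlaps RPT5B. RPT6A was the most even member, at 39.4 ± 2.36 CPM under traffic noise and 38.9 ± 3.01 CPM in controls (SD, n = 3 each).

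Of the non-ATPase genes, 6 of 8 had a negative fold change, and their summed level was 179.6 ± 27.4 CPM under traffic noise and 225.5 ± 13.9 CPM in controls (SD, n = 3 each), a ratio of 0.796. RPN13, a ubiquitin receptor of the base, had 15.9, 11.2 and 14.7 CPM under traffic noise, against 15.4, 28.8 and 41.0 CPM in controls. Its log2 fold change of -1.03 ± 0.41 was the lowest of all members, yet control replicate 1 lay within the traffic noise range. Without control replicate 3 it was -0.66, and RPT2a was then lower, at -0.97. RPN10, the other ubiquitin receptor, had 28.5, 25.7 and 26.7 CPM under traffic noise, against 42.1, 31.6 and 29.8 CPM in controls; the groups were separate by a small margin, with a log2 fold change of -0.36 ± 0.29 that was -0.19 without control replicate 1. RPN1A had 19.3, 21.5 and 11.2 CPM under traffic noise, against 34.6, 23.1 and 38.9 CPM in controls, also separate, at -0.89 ± 0.37. Adjusted p-values in edgeR's quasi-likelihood test were 0.620 for RPN13 and 0.628 for RPN1A.

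RPN12a, a lid subunit linked to cytokinin responses, had 67.0, 72.2 and 54.95 CPM under traffic noise, against 77.8, 66.0 and 92.8 CPM in controls, which overlapped. Its log2 fold change was -0.28 ± 0.24, and -0.15 without control replicate 3, and an opposite-strand locus with more counts overlaps it in the annotation. RPN12b was barely detected, with 1.53, 0.789 and 0 CPM under traffic noise, against 0, 1.20 and 0 CPM in controls. Its fitted log2 value of 0.94 ± 2.54 rests on 69 counts in all and gives no direction. RPN5B was also low, with 155 counts in all, at 1.25 ± 0.44 CPM under traffic noise and 1.43 ± 2.18 CPM in controls (SD, n = 3 each). RPN1B and the lid subunit RPN8A had log2 fold changes of -0.10 ± 0.38 and 0.25 ± 0.38.

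Core and regulatory particle can also be read through their gene pairs. In all 10 pairs whose copies are both members, the share of the pair's level on the first copy overlapped between the groups. RPT2a made up 67.4%, 62.8% and 73.1% of its pair under traffic noise, against 86.1%, 87.4% and 70.4% in controls. RPN1A made up 51.1% ± 11.8 under traffic noise and 64.6% ± 3.11 in controls (SD, n = 3 each). The pair sums did not overlap for PAE, PAF, PBB, PBC and RPT5, all lower under traffic noise. Of single tested loci 7.39% were lower without overlap, and 10.7% of those with at least 10 CPM on average. Sums of other gene pairs were not computed. The PBB pair summed to 50.2 CPM under traffic noise and 87.4 CPM in controls. The split between copies is less certain than the sum, as the treatment of reads that match both copies is not stated.

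Fold changes were also set beside the promoter string, without a test. The 18 members with TGGGC had a median log2 fold change of -0.26, with 15 negative, and the 14 without it a median of -0.26, with 9 negative. Within the core the medians were -0.28 with the string and -0.51 without it. In the regulatory particle the order was the other way, with -0.20 and 5 of 7 negative with the string, and -0.11 and 4 of 8 negative without it.

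Other genes of the pathway were described from lists of 13 assembly and regulatory genes, 14 genes of ubiquitin, its activation and its delivery, and 10 genes of the COP9 signalosome, a complex related to the lid. Of the first list 12 were tested, 7 negative and 5 positive, with a median of -0.15. Calls by edgeR and limma-voom were 0, and DESeq2 called 0 of the 4 genes it gave an adjusted p. At an unadjusted p under 0.05 the counts in edgeR, DESeq2 and limma-voom were 0, 0 and 1. The 1 gene in limma-voom was higher, against 5.75% of all loci. NAC053, the activator of proteasome genes, had 17.8 ± 2.61 CPM under traffic noise and 16.5 ± 5.45 CPM in controls (SD, n = 3 each). AT3G53970, a proteasome regulator, had 19.7, 14.4 and 9.05 CPM under traffic noise, against 1.62, 11.2 and 1.38 CPM in controls, and control replicate 2 lay among the traffic noise libraries. The deubiquitinase UBP7 had 3.50, 13.5 and 9.64 CPM under traffic noise, against 4.03, 2.95 and 0 CPM in controls. The core maturation factor AT1G67250 had 21.8, 30.1 and 22.3 CPM under traffic noise, against 42.8, 40.1 and 25.2 CPM in controls. Both overlapped between the groups.

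The ubiquitin list was negative for 11 of 14 genes, with a median of -0.27, and its polyubiquitin genes went both ways. UBQ3 had 2189, 2570 and 2425 CPM under traffic noise, against 1097, 1710 and 1218 CPM in controls, every traffic noise library above every control. On the log2 scale the difference was 0.84 ± 0.22, and the adjusted p was 0.469 in edgeR's quasi-likelihood test and 0.0144 in DESeq2, the one listed gene it called. UBQ11 had 664.8, 781.5 and 702.6 CPM under traffic noise, against 819.2, 831.9 and 1079 CPM in controls, in the other direction and also without overlap. Polyubiquitin genes hold repeats of one coding sequence, so reads may be shared among them. UBA1, the main ubiquitin-activating enzyme, had 175.2, 185.3 and 152.9 CPM under traffic noise, against 167.1, 222.3 and 293.5 CPM in controls, and overlapped.

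The signalosome list had 5 positive and 4 negative genes of 9 tested, with a median of 0.11. On the higher side 3 did not overlap between the groups and on the lower side 1, against 8.99% and 7.39% of all tested loci. CSN5B, 1 of these 3, was kept by the filter through its traffic noise libraries alone. Its lack of overlap therefore adds nothing. For the 8 signalosome genes of at least 5 CPM on average, which leave out CSN5B, the median was 0.05. CSN5B had 4.04, 0.690 and 1.37 CPM under traffic noise, against 0, 0.0547 and 0 CPM in controls, where all 3 libraries lay under the floor of 3 counts, 0.144 to 0.171 CPM, so no fold is given. FUS5 had 5.87, 10.5 and 9.49 CPM under traffic noise, against 11.8, 14.9 and 35.0 CPM in controls, a log2 fold change of -1.26 ± 0.51 without overlap. The other 2 genes higher without overlap were CSN6A, with 9.30 ± 0.89 CPM under traffic noise and 4.08 ± 3.71 CPM in controls, and COP9, with 10.6 ± 2.004 CPM under traffic noise and 4.97 ± 3.04 CPM in controls (SD, n = 3 each), named after their values were seen. FUS12 had 24.2, 27.0 and 17.5 CPM under traffic noise, against 38.0, 23.7 and 45.9 CPM in controls, which overlapped. No gene of the list was called by edgeR or limma-voom. DESeq2 gave an adjusted p to none of them, so it could call none. At an unadjusted p under 0.05 edgeR, DESeq2 and limma-voom each had 2. In each test they were CSN5B, higher and with controls under the floor, and FUS5, lower. Shares of all loci were 3.48% higher and 3.98% lower in edgeR, 3.85% and 4.15% in DESeq2, and 5.75% and 3.86% in limma-voom.

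Some regulatory particle subunits that carry other symbols were added after values had been seen. The list is not complete: RPN11 is not in it, and no core subunit under another symbol was added. DSS1(I) and DSS1(V), which encode the lid subunit DSS1, stayed in the list of assembly and regulatory genes. Their log2 fold changes were -0.10 and -0.32. All 6 added genes had a negative fold change, with a median of -0.30. Of all tested loci 47.5% were negative, and 50.1% of those with at least 10 CPM on average. Calls by edgeR and limma-voom were 0, and DESeq2 called 0 of the 3 it gave an adjusted p. In none of these tests did a gene have an unadjusted p under 0.05. AT4G24820, a lid subunit, had 44.9, 55.9 and 53.8 CPM under traffic noise, against 71.6, 70.1 and 71.4 CPM in controls, with the groups apart. AT2G32730, a large base subunit, had 87.1, 98.2 and 75.0 CPM under traffic noise, against 126.8, 103.8 and 103.5 CPM in controls, likewise apart. With these 6 counted in, the regulatory particle's median log2 fold change was -0.22.

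**Figure D4:**
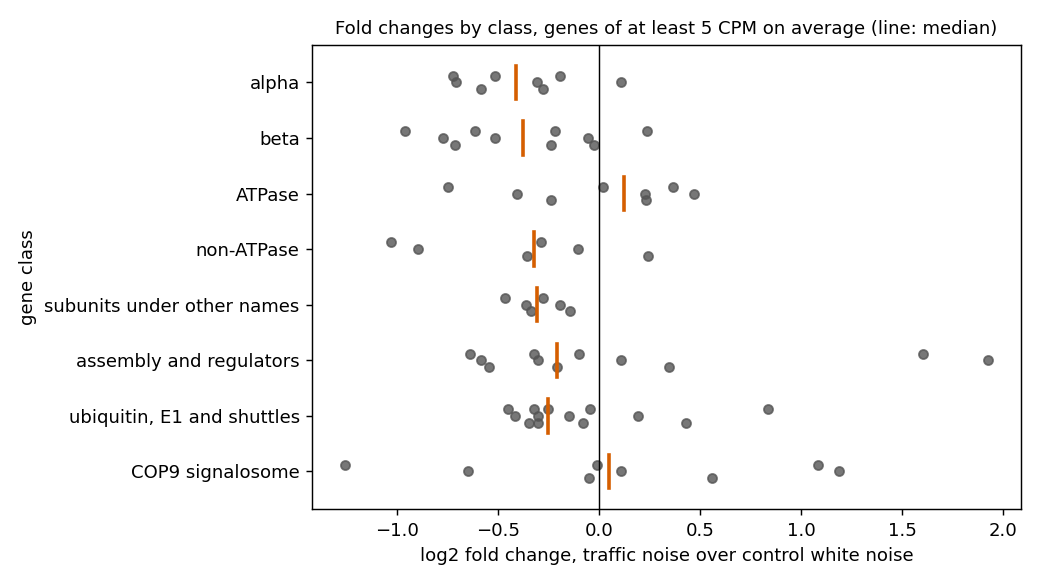
Fitted log2 fold changes, traffic noise over control white noise, of genes with at least 5 CPM on average in each subunit class and each list of related genes; points are genes and the line is the median. The alpha and beta medians are -0.41 and -0.37, the ATPase median is 0.12 (below 0 without control replicate 3 or traffic replicate 1), and the points of the 6 subunits under other names all lie below 0.

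The rows set aside had values of their own. The PAB1 row with counts had 21.8, 21.1 and 14.8 CPM under traffic noise, against 34.7, 25.97 and 37.0 CPM in controls, and the other PAB1 row was at 0 in all 6 libraries. RPT2, the phototropism gene, ranged from 21.2 to 157.1 CPM under traffic noise and from 32.0 to 107.2 CPM in controls. PAB2, the poly(A) binding protein, had 596.6 ± 44.9 CPM under traffic noise and 815.1 ± 117.7 CPM in controls (SD, n = 3 each). None of these rows is counted among the members.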

How the data were processed

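RNA was extracted with Trizol and made into libraries with the Lexogen QuantSeq kit, per the labels' protocols. The authors deposited, for each of 6 samples, one table of raw, unnormalized counts, with a gene symbol on each row. The submitters' processing notes name Bowtie2, bedtools and the TAIR10 build, without versions or roles. Each table had 33139 rows; the 218 rows without a name, 0.0431% to 0.0886% of a library's counts, entered neither totals nor tests. Loci, products, overlaps and promoters came from the TAIR10.1 RefSeq annotation, to which 32488 named rows were tied as 1 locus each; the count tables hold no coordinates. Whether counting used strand, and how reads with several matches were counted, is not given in the sources used here.

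The 3 traffic noise libraries were compared with the 3 control white noise libraries over all loci kept by edgeR's filterByExpr (minimum count 10), 19112 of them and all 34 members. edgeR's robust quasi-likelihood F test with TMM factors was used, called at a Benjamini-Hochberg adjusted p under 0.05. Standard errors divide the absolute log2 fold change by the root of F. Summed levels and list medians have no test. The fits with edgeR, DESeq2 and limma-voom were tried on simulated counts with known changes. Sums, medians, pair shares and promoter shares were not tried in this way. The members and lists were chosen with earlier results of these data known. Per-library values are given for subunits with proteolytic sites, ubiquitin receptors and, in each class, the 3 smallest p-values, the largest positive fold change and the highest level; a list contributed its 3 smallest p-values. PAB1, PAB2, RPT2, NAC053, the subunits under other names, the pairs and the remaining members were described beside these, in part after their values were seen.

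Alternatives were RLE factors, library totals, no filter, no organelle loci, DESeq2, limma-voom, a replicate block, each library left out, and members by symbol alone; subunits under other names and a minimum of 30 CPM were added after the data were seen. An adjusted p that DESeq2 withheld stayed missing. Software was R 4.3.3, edgeR 4.0.16, limma 3.58.1, DESeq2 1.42.0, Python 3.11.15, pandas 2.3.3 and matplotlib 3.10.9.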

Additional observations from a re-analysis of the deposited data

How the results depend on the processing

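Under all 16 alternatives 0 members were called. The core median log2 fold change stayed between -0.51 and -0.34 and the log2 ratio of its summed level between -0.50 and -0.35. The regulatory particle median, -0.15, was -0.046 with limma-voom, -0.22 with the subunits under other names and -0.26 for members of at least 30 CPM, and ran from -0.19 to 0.043 with 1 library left out. Its summed level had a log2 ratio of -0.20, of -0.14 with members taken by symbol alone, and of -0.23 to -0.17 with 1 library left out. With the subunits under other names that ratio was -0.24. The core minus regulatory particle difference of medians, -0.26, ran from -0.49 to -0.19 with 1 library left out, the lowest without traffic replicate 2. This difference was -0.19 with the subunits under other names and -0.35 with limma-voom. Of 22 named members 20 kept their sign in every setting. PAD2, at 0.11, was -0.29 without control replicate 3 and -0.11 without traffic replicate 1, with a range of -0.29 to 0.60 over single libraries left out. RPN12b, at 0.94, was -0.023 without traffic replicate 1, with a range of -0.023 to 6.94. The 2 loci called among all became 0 without organelle loci, 6 without the filter, 214 with DESeq2, 12 with limma-voom and 0 to 31 with 1 library left out. Apart from what is given beside a result, the cause of these differences was not tested. The median of all loci was 0.05 and ran from 0.0075 to 0.10 with 1 library left out; it was 0.04 with RLE factors, 0.08 with library totals, 0.16 with limma-voom and 0.15 with the block. Relative to it the regulatory particle median was -0.20, -0.21 with limma-voom and -0.20 with the block; the core median was -0.46, -0.56 and -0.55; and the ATPase median was 0.08, -0.04 and -0.03, which changed sign.

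Deviations of same-numbered libraries correlated across genes at -0.01, 0.01 and 0.02. With so few libraries a group, these values cannot decide whether equal numbers mark a shared plate or day. With the replicate block the regulatory particle median was -0.045 and 0 loci were called. The unadjusted counts were then 5 of 18 core and 0 of 16 regulatory particle genes, all lower, against 3.26% of all loci lower.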
